A study of Drosophila melanogaster with 2 samples.

Results

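The genes described here are 9 genes of the ecdysone cascade, *EcR*, *usp*, *br*, *Eip74EF*, *Eip75B*, *Eip78C*, *ftz-f1*, *Hr4* and *Hr39*, chosen by name among 13945 annotated protein-coding genes of the fly. A region belonged to a gene when its summit, the position of highest signal given by the peak caller, lay inside the gene or within 5 kb of it. By this rule 30 of the 3587 peaks in the thresholded list lay at the 9 genes, and 8 of the 9 had at least 1. Of all protein-coding genes 38.7% had at least 1, and of those spanning 50 kb or more, to which 6 of the 9 belong, 64.8%. The same rule took 272 of 30000 candidate regions in the pooled list, 229 of 30000 in replicate 2 and 274 of 30000 in replicate 4. The data were chromatin immunoprecipitation with sequencing (ChIP-seq) of MTF-1, the metal-responsive transcription factor, in whole *Drosophila melanogaster* embryos 0 to 24 h old, males and females pooled. All embryos came from 1 transgenic line, MTF-1-GFP, in which GFP is fused to the C-terminal end of MTF-1; the labels do not give the promoter that drives it. There was 1 group of 2 samples, the biological replicates 2 and 4, so nothing was compared with untagged, metal-treated or hormone-treated embryos. The free-text description calls both samples an input control, whereas the antibody and assay labels give MTF-1 ChIP-seq, and the lists were read as MTF-1 ChIP. The number of reads is not known here, so the counting error of a single region's signal cannot be given.

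The steroid hormone ecdysone, through its active form 20-hydroxyecdysone, times the molts and metamorphosis of insects and also pulses during embryogenesis. It binds a heterodimer of the nuclear receptors EcR and Usp, which switches on early genes, among them *br*, *Eip74EF* and *Eip75B*. Their products are transcription factors that act on later genes, and several of those encode nuclear receptors in turn, such as *Hr4*, *ftz-f1*, *Hr39* and *Eip78C*. Whole embryos mix all cell types, so weak binding in many cells and strong binding in a few cannot be told apart here.

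Ranks below order the regions of 1 list by the authors' signal value, rank 1 being the strongest. The lists of the replicates and of the pooled alignments each hold 30000 regions, peaks and background together. The thresholded peaks were the 3587 strongest regions of the pooled list, and 3587 of 3587 had the same rank in both. Their signal ran from 104.02 to 16205 with a median of 154. Signal was not compared between lists, because its scale is not stated.

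The sequences around 4 of the summits are shown first, because they share a run of bases that few other peaks held. Those in introns reach 50 bp to either side of the summit, and that in the 3′ UTR is limited to the run and its flanks. All are written on the strand of the gene from the dm6 genome (RefSeq Release 6 sequence), with TGGCGCC in capitals wherever it occurred on either strand. The run is part of the known binding motif of the insulator protein CTCF in flies.
Eip75B intron, rank 198 (chr3L:18019760-18019860, minus strand): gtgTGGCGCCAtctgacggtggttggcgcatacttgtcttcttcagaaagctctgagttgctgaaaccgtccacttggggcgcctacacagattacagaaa
Eip75B intron, rank 1504 (chr3L:17988280-17988380, minus strand): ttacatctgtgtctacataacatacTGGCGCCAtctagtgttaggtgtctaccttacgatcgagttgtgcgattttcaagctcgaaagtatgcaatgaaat
Hr4 intron, rank 2032 (chrX:1953064-1953164, plus strand): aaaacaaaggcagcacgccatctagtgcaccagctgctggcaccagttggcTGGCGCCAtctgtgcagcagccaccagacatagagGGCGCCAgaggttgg
Hr4 3′ UTR, rank 290 (chrX:2005997-2006026, plus strand): aaattcctcagTGGCGCCAcctgtatttag

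In all 4 windows the run overlapped itself on both strands, and the *Hr4* intron window of rank 2032 held it at another place on 1 strand. These were 4 of the 30 windows of 101 bp at the ecdysone genes (13.3%), against 2.20% of all 3587 thresholded windows and 1.08% of 14859 background windows, which are weak regions of the pooled list. The run was picked after these windows had been read, so the shares are a description. All 4 windows lay inside *Eip75B* or *Hr4*, and none was at a promoter.

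The strongest peak at any of the 9 genes lay in *Hr4* and lacked that run, as did the second strongest peak of *Hr4*. Their windows are shown with the summit base in capitals.
Hr4 intron, rank 189 (chrX:1947677-1947777, plus strand): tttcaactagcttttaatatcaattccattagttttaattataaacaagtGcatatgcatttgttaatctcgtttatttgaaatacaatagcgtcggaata
Hr4 intron, rank 247 (chrX:1951865-1951965, plus strand): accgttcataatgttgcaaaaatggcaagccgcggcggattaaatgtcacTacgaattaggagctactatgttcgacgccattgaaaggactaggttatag

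The first of these windows had a GC content of 25.7% and the second 43.6%, against a mean of 40.2% over all thresholded windows. Over the 30 windows at the ecdysone genes, GC content ran from 23.8% to 60.4% with a mean of 44.8%.

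Sequences at annotated starts of the genes themselves that had a peak are shown next, since these peaks lie closest to particular transcripts. The *ftz-f1* start is nearly shared with a non-coding gene. Of the 7 peaks at own starts, those at *EcR-RG* and *Eip75B-RA* are not shown. The sequences are placed by the start and not by the summit. Each sequence holds 70 bases before the start and the first 30 transcribed bases, with the first transcribed base in capitals.
Eip75B-RC start, rank 1423 (chr3L:17999792-17999891, minus strand): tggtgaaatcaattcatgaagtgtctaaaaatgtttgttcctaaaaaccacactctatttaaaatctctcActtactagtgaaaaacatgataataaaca
Eip75B-RD start, rank 2247 (chr3L:17961785-17961884, minus strand): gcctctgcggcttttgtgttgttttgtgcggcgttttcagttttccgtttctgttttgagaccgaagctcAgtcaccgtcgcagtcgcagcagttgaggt
Eip78C-RB start, rank 1522 (chr3L:21240277-21240376, plus strand): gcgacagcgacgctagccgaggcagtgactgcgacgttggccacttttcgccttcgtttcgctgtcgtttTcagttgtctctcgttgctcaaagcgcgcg
Hr39 start, rank 1725 (chr2L:21237180-21237279, plus strand): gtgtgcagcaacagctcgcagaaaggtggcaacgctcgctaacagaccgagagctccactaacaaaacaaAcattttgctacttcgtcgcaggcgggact
ftz-f1-RB start, rank 2922 (chr3L:18801280-18801379, minus strand): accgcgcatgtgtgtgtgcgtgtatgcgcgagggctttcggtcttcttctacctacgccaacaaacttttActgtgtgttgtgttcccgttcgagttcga

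The summit lay 102 bp from the *Eip75B-RC* start, 76 bp from *Eip75B-RD*, 32 bp from *Eip78C-RB*, 15 bp from *Hr39* and 29 bp from *ftz-f1-RB*. The first 4 summits lay downstream of the start and that of *ftz-f1* upstream. Those at *Eip75B-RC*, *Eip75B-RD* and *Eip78C-RB* lay beyond the last base shown.

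Peaks were concentrated in 3 of the 9 genes. *Eip75B*, which encodes a heme-binding nuclear receptor, had 10 of the 30 peaks, *EcR*, the hormone receptor itself, had 7, and *Hr4*, a nuclear receptor gene of the early-late class, had 6. *ftz-f1*, whose product also acts as the cofactor of the segmentation protein Ftz, had 3. *Eip78C* and *Hr39*, further nuclear receptor genes, had 1 each. So did *usp* and *Eip74EF*, where the summit lay at a neighbouring gene. *br*, which encodes a family of zinc-finger transcription factors, had none.

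**Figure D1:**
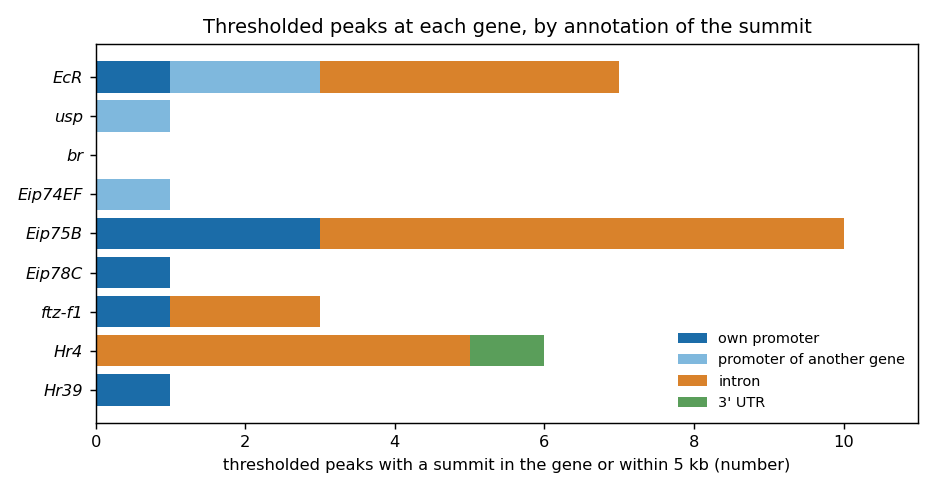
Number of thresholded MTF-1-GFP peaks at each of the 9 genes, coloured by where the summit lies. *Eip75B*, *EcR* and *Hr4* carry 10, 7 and 6 peaks, mostly in introns, and *br* carries none.

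Of all protein-coding genes, 38.7% had a thresholded summit inside or within 5 kb. The share was larger for genes of longer span, at 35.5% under 10 kb, 57.4% from 10 to 50 kb and 64.8% at 50 kb or more. Of the ecdysone genes, *usp* falls in the first class, *Eip78C* and *Hr39* in the second and the other 6 in the third, where 5 of 6 had a peak. The 8 of 9 genes with a peak are therefore to be read against the long genes more than against all genes.

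The number of peaks set 3 of the genes further apart. Among the 307 genes of 50 kb or more the median was 1 peak, and 25 genes (8.14%) had 6 or more, *Eip75B*, *EcR* and *Hr4* among them. Only 7 of the 307 had 10 or more, *Eip75B* included. Per 100 kb of span and flanks *Eip75B* had 8.08 peaks, *Hr4* 7.89 and *EcR* 7.67, where the median long gene had 1.41. *ftz-f1* had 4.94 and *Eip74EF* 1.42. These 5 genes were also rich in candidate regions, with 48.1 to 61.0 pooled regions per 100 kb against a median of 17.8 for long genes, while *br* had 8.02. Of the 272 pooled candidate regions at the 9 genes, 30 were thresholded peaks, a share of 11.03% beside 12.0% in the whole list.

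By annotation, 18 of the 30 summits lay in introns (60%), 11 within 500 bp of a transcript start (36.7%, called promoter peaks) and 1 in a 3′ UTR. In the whole thresholded list promoters held 50.5% and introns 34.3%. The 272 pooled candidate regions at the same genes were already 71.7% intronic and 20.2% at promoters, against 42.4% and 28.6% of the pooled list, so introns held a smaller share of the thresholded peaks at these genes than of their candidates. The intronic peaks at the ecdysone genes ranked from 189 to 3257 with a median of 1233.5, and the promoter peaks from 1327 to 3524 with a median of 2247. In the whole list the medians were 1822 for introns and 1752 for promoters, a small gap in the opposite order. That order was not stable. With replicate 2 ranks the whole-list medians were 2214 for introns and 1679 for promoters, and with replicate 4 ranks 1743 and 1814.5. The promoter median at the ecdysone genes joins 7 peaks at their own starts, with a median of 1725, and 4 at starts of other genes, with a median of 3374.5. The own-start peaks were thus near the median of all promoter peaks.

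Among the 500 strongest peaks of the list were 7 at the ecdysone genes. They comprised 6 in introns, 3 of them in *Hr4*, 2 in *Eip75B* and 1 in *EcR*, and the one in the 3′ UTR of *Hr4*. None of the 11 promoter peaks was among the 500 strongest, where 15.6% of all promoter peaks and 11.8% of all intronic peaks stood. All 7 were narrower than the usual region of 344 bp, as were 94.6% of the 500 strongest peaks. At the other end, the weakest thresholded peaks of these genes were those of rank 3524 and 3493 at *EcR* (signal 105 and 106). The first regions below the threshold were those of rank 3687 at *Eip75B* and 3709 at *usp* (signal 102 for both).

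*EcR* (FBgn0000546), which encodes the ligand-binding partner of the receptor, lies on 2R (6087873 to 6169087, minus strand) and has 4 distinct starts. Its strongest peak ranked 304 (6151176 to 6151300, signal 384), with rank 214 in replicate 2 and 518 in replicate 4, and lay in an intron 5870 bp downstream of the start of *EcR-RD* and *EcR-RE*. A second summit of rank 1953 lay 201 bp away. For these summits the nearest start of any gene was that of tRNA:Asn-GTT-1-1, at 1417 and 1216 bp respectively. Both overlapped 1 region in each replicate list, so the replicates do not separate them. A peak of rank 1046 (6133030 to 6133128, signal 205) ranked 530 in replicate 2 and 1396 in replicate 4 and lay 1165 bp upstream of the *EcR-RB* and *EcR-RC* start. The remaining intronic peak, of rank 1284, lay 11375 bp downstream of *EcR-RG* and ranked 1736 and 1681 in replicates 2 and 4. This was the closest match between the replicates at *EcR*.

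Only 1 of the 3 promoter peaks at *EcR* was at starts of *EcR* itself. It ranked 1830, with its summit 25 bp from the *EcR-RG* start and 56 bp from that of *EcR-RB* and *EcR-RC*, and ranked 1965 in replicate 2 and 2784 in replicate 4. The other 2 counted as promoter peaks through non-coding genes inside *EcR*. One, of rank 3524, was 115 bp away from where tRNA:Arg-ACG-1-1 begins and ranked 3543 and 7319 in replicates 2 and 4. The other, of rank 3493, was 475 bp away from lncRNA:CR43904 and 993 bp upstream of *EcR-RD*, and ranked 2088 and 6057. The starts farther upstream had only weak regions, the best of pooled rank 5321 at *EcR-RD* and *EcR-RE* and 15028 at *EcR-RA*.

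The partner gene *usp* (FBgn0003964, X 2038798 to 2042311, minus strand), a compact gene for the RXR homologue of flies, had no thresholded peak at its own starts. The single peak within 5 kb (rank 3007, X 2036289 to 2036632) lay 5 bp from a start of the neighbouring alpha-actinin gene *Actn* and 4851 bp from *usp-RA*. It ranked 4960 in replicate 2 and 6492 in replicate 4, outside the 3587 strongest of both. A region 177 bp from *usp-RA* fell just short of the threshold, with rank 3709 in the pooled list, 2217 in replicate 2 and 4527 in replicate 4. The 3587 strongest regions of replicate 2 thus held the one at *usp-RA* and not the one at *Actn*. Another gene, *CG4313*, starts on the opposite strand 556 bp from *usp-RA*. The *usp-RB* start is also a start of *Actn*, on the same strand.

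*br* (FBgn0283451, X 1575132 to 1664869, plus strand), with 9 starts for 16 transcripts, was the only gene of the 9 without a thresholded peak within 5 kb. None of its 9 starts had a region of any list within 500 bp. Inside its 89.7 kb the pooled list held 7 regions, replicate 2 held 10 and replicate 4 held 4, and the best of the pooled regions there ranked 10863. Its best region within 5 kb ranked 8730 in the pooled list and 3765 in replicate 4 and lay outside the gene, 118 bp from the start of *CG3740* in the pooled list. In replicate 2 the best region ranked 7780 and lay inside *br*, in an intron 1388 bp from the *br-RS* start. Of the 307 long genes, 55 had as few pooled regions per length as *br* or fewer, *br* included.

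*Eip74EF* (FBgn0000567, 3L 17558672 to 17619325, minus strand), which encodes transcription factors of the ETS family, also had its only thresholded peak at a neighbour. That peak (rank 3256, 3L 17557398 to 17557741) lay outside *Eip74EF*, 218 bp from a start of the cyclin T gene *CycT*, and ranked 5850 in replicate 2 and 2670 in replicate 4. Its own best regions fell short of the threshold. A region 57 bp from *Eip74EF-RD* ranked 3971 in the pooled list, 6325 in replicate 2 and 5635 in replicate 4. An intronic region of pooled rank 4042 ranked 1939 in replicate 2 and 9121 in replicate 4, and another of pooled rank 4241 ranked 3549 and 3289. The last was among the 3587 strongest regions of both replicates and yet not in the thresholded list.

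*Eip75B* (FBgn0000568, 3L 17950953 to 18064696, minus strand) has 7 annotated starts, each of 1 transcript. Its strongest peak ranked 198 (3L 18019705 to 18019917, signal 466, 3.04 times the list median), with rank 179 in replicate 2 and 269 in replicate 4. It lay in an intron, 6222 bp downstream of *Eip75B-RG*, and is the first sequence printed above. The next ranked 376 (3L 18029715 to 18029892, signal 349), with rank 269 in replicate 2 and 532 in replicate 4, and lay 3760 bp upstream of the same start. Between this pair, the region at the *Eip75B-RG* start itself ranked 7747 in the pooled list, 7165 in replicate 2 and 17496 in replicate 4. The other 5 intronic peaks had pooled ranks of 1036, 1183, 1504, 1652 and 2918. Among these, the replicate ranks differed most, as a ratio, for pooled rank 1183 (3186 in replicate 2, 953 in replicate 4) and pooled rank 1652 (5076 and 1987).

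At the starts of *Eip75B*, 3 of 7 had a thresholded peak. At *Eip75B-RA* it ranked 1327 (3L 17971008 to 17971351, summit 259 bp into the transcript), 792 in replicate 2 and 2840 in replicate 4. At *Eip75B-RC* it ranked 1423, 957 in replicate 2 and 1380 in replicate 4. At *Eip75B-RD* it ranked 2247, 1660 in replicate 2 and 4673 in replicate 4. All 3 ranked higher in replicate 2. The upstream starts *Eip75B-RB*, *Eip75B-RE* and *Eip75B-RF* had no pooled region within 500 bp, and 1 replicate region in all, of rank 22892 in replicate 2 at *Eip75B-RE*.

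*Eip78C* (FBgn0004865, 3L 21226609 to 21266503, plus strand), which encodes a relative of the *Eip75B* product, had 1 peak, on an internal start. Of its 3 starts, that of *Eip78C-RB* carried the peak of rank 1522 (3L 21240207 to 21240550, signal 168), which ranked 1136 in replicate 2 and 3058 in replicate 4. Its upstream starts had a best pooled region of rank 22487 and no region in replicate 2.

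*Hr4* (FBgn0264562, X 1941940 to 2007956, plus strand) had the strongest peak of the 9 genes. That peak, of rank 189 (X 1947637 to 1947845, signal 472, 3.07 times the list median), lay in an intron 5787 bp downstream of the first start, which 7 of its 9 transcripts use, and ranked 236 in replicate 2 and 162 in replicate 4. The peak of rank 247 (X 1951818 to 1952024, signal 425) lay 9975 bp downstream of that start and ranked 464 in replicate 2 and 204 in replicate 4. The peak of rank 395 (X 1963841 to 1964022, signal 339) lay 21966 bp downstream and ranked 404 in replicate 2 and 530 in replicate 4. These 3 strong peaks thus stood in introns between the first and the second start of the gene, with replicate ranks of 162 to 530. For the peaks of rank 247 and 395 the nearest start of any gene was that of CR46447, at 2565 and 9426 bp respectively. The peak of rank 290 (X 2005921 to 2006122, signal 393) lay at the far end of the gene, in its 3′ UTR, 3347 bp from the nearest start of any gene, that of *PIG-K*, and ranked 449 in replicate 2 and 358 in replicate 4. Weaker intronic peaks had ranks 2032 and 2433, and the first of these, 1199 bp past the summit of rank 247, ranked 3733 and 3964 in the replicates, outside the 3587 strongest of each. Neither start of *Hr4* had a thresholded peak. The best region at the first start ranked 8118 in the pooled list and 5820 in replicate 4, and replicate 2 had none within 500 bp. At the second start, of *Hr4-RE* and *Hr4-RF*, the ranks were 4092 in the pooled list, 12539 in replicate 2 and 3456 in replicate 4.

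**Figure D2:**
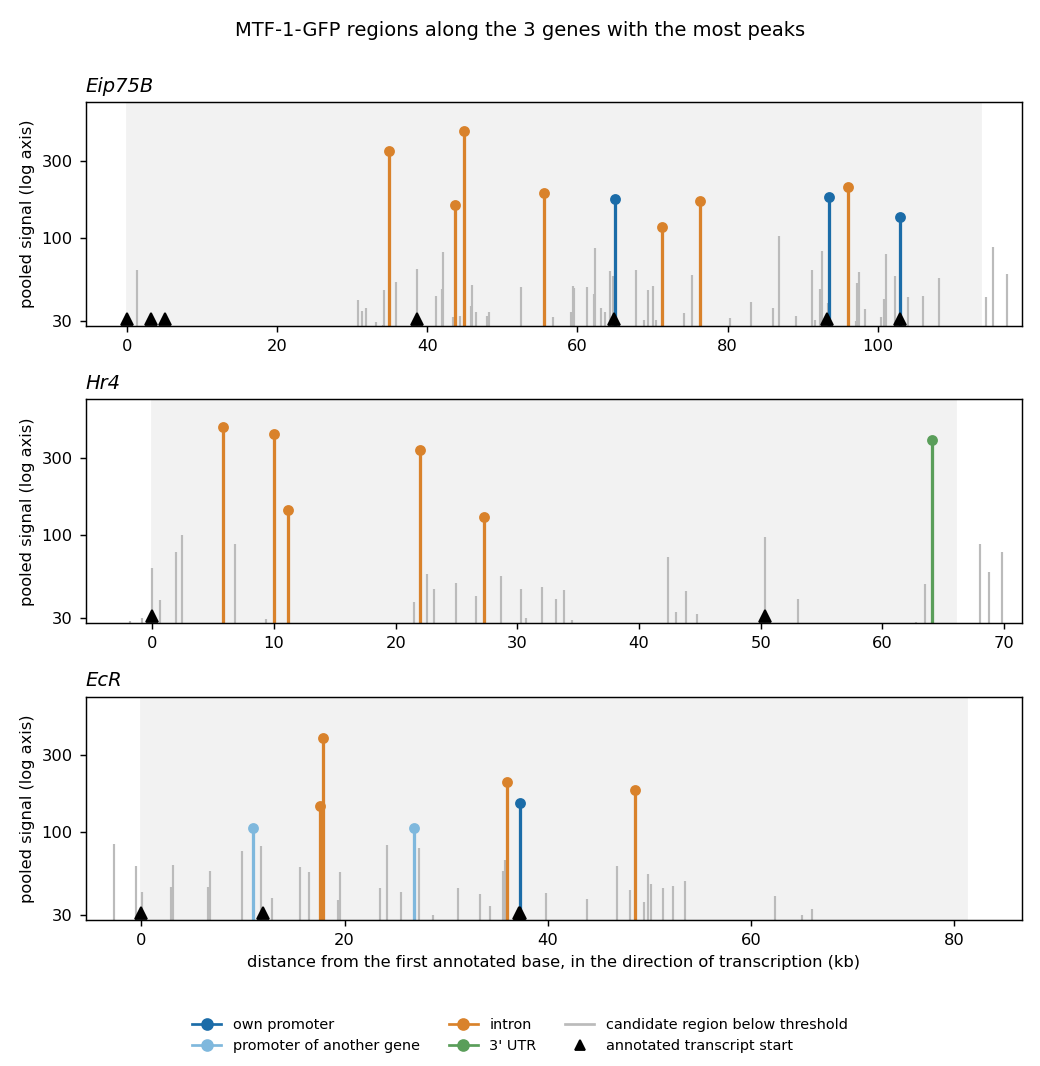
Pooled signal (log axis) of regions along *Eip75B*, *Hr4* and *EcR*, against distance in kb from the first annotated base, with thresholded peaks in colour, weaker candidate regions in grey and transcript starts as triangles. The tallest peak of each gene stands in an intron, apart from the triangles, and 4 of the 7 starts of *Eip75B* and both starts of *Hr4* have no thresholded peak.

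*ftz-f1* (FBgn0001078, 3L 18750607 to 18801309, minus strand) had 1 promoter peak and 2 intronic ones. The strongest in the pooled list was intronic, of rank 1642 (3L 18789486 to 18789829), 11651 bp downstream of *ftz-f1-RB*. It ranked 3316 in replicate 2 and 2821 in replicate 4 and was the strongest region of the gene in neither. In replicate 2 an intronic region of pooled rank 6474 ranked 1186, and in replicate 4 the promoter peak stood higher. The promoter peak, of rank 2922, ranked 3684 in replicate 2 and 2395 in replicate 4. It lay at the most upstream start, that of *ftz-f1-RB*, which is 3 bp from that of lncRNA:CR45939 on the same strand, so the peak cannot be assigned to either. The third peak, of rank 3257, ranked 8497 in replicate 2 and 3614 in replicate 4. The start shared by *ftz-f1-RC* and *ftz-f1-RD* had a best region of rank 4892 in the pooled list, 17909 in replicate 2 and 5036 in replicate 4.

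*Hr39* (FBgn0261239, 2L 21237250 to 21259675, plus strand), whose product is a close relative of FTZ-F1, has 1 start for all 4 transcripts. The peak there (rank 1725, 2L 21237093 to 21237436, signal 157) ranked 1700 in replicate 2 and 4698 in replicate 4. Another gene, *CG31626*, starts on the opposite strand 517 bp from it.

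Counting all 34 distinct starts of the 9 genes, 8 had a thresholded summit within 500 bp and 22 had a pooled candidate region. A peak at a start of its own was found for 5 of the 9 genes, against 14.3% of all protein-coding genes. All of the 9 but *Hr39* have several starts, and no share for genes with as many starts was counted. In replicate 2 alone 8 of the 34 starts had a region among its 3587 strongest, and in replicate 4 alone 7 did. The most upstream starts of *EcR*, *Eip75B* and *Eip78C* had no thresholded peak, while that of *ftz-f1* and the single start of *Hr39* did.

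**Figure D3:**
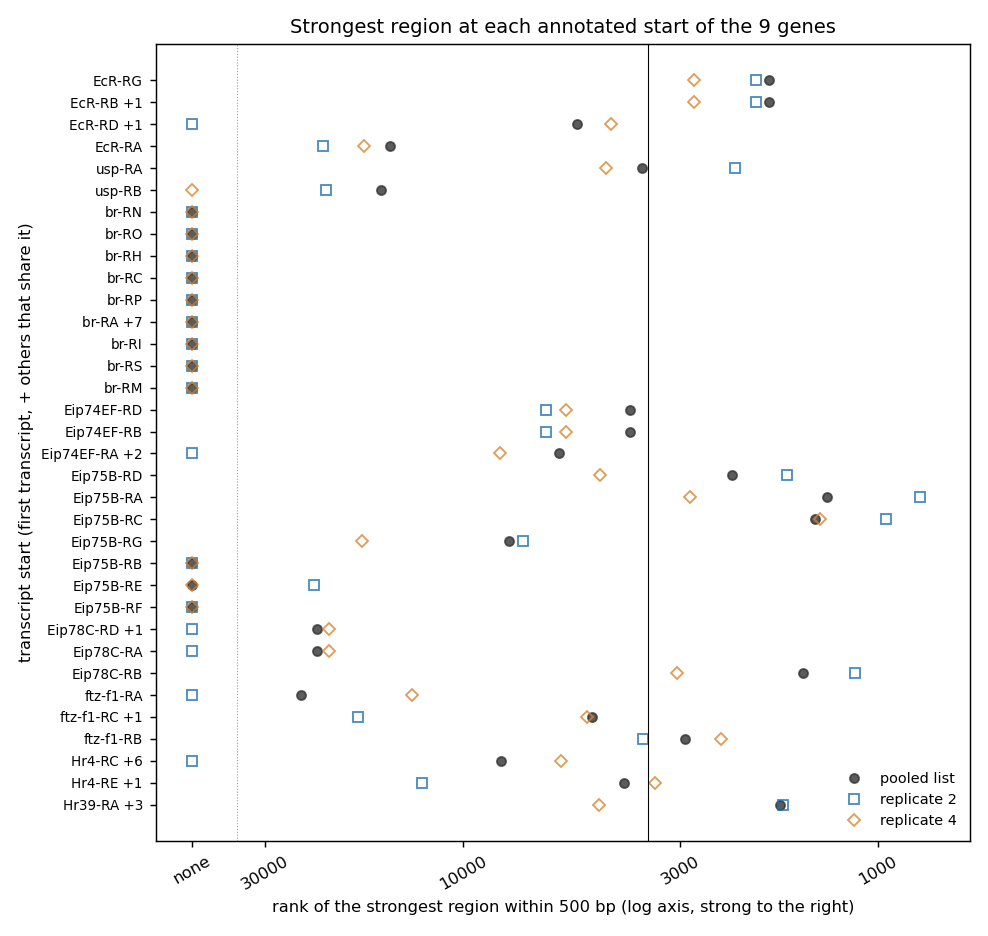
Rank (log axis, strong to the right) of the strongest region within 500 bp of each of the 34 starts of the 9 genes, in the pooled list and in both replicate lists. Pooled symbols right of the solid line, at rank 3587, are thresholded peaks: 8 of 34 starts, at *EcR*, *Eip75B*, *Eip78C*, *ftz-f1* and *Hr39*, and the starts of *br* have no region in any list.

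Most promoter peaks at the ecdysone genes ranked higher in replicate 2, and most intronic peaks did not. Of the 11 promoter peaks, 9 ranked higher in replicate 2, with a median of 1965 there and 3058 in replicate 4. Of the 18 intronic peaks, 8 ranked higher in replicate 2, with medians of 1500 and 1194.5. Over the whole thresholded list, 49.5% of promoter peaks and 38.8% of intronic peaks with a region in both replicates ranked higher in replicate 2. Mean GC content was 46.5% in the promoter windows of the ecdysone genes and 43.7% in their intronic windows, against 41.9% and 37.7% in all promoter and intronic peaks, and its part in the replicate ranks was not tested.

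In total 19 of the 30 peaks (63.3%) overlapped a region among the 3587 strongest of both replicates, close to the 59.0% of the whole list. These were 14 of the 18 intronic peaks, 4 of the 7 peaks at the genes' own starts, none of the 4 peaks at starts of other genes, and the 3′ UTR peak. The *EcR* intronic peaks of rank 304 and 1953 overlap the same region in each replicate list. That region is counted for both peaks, here and in the replicate medians above.

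**Figure D4:**
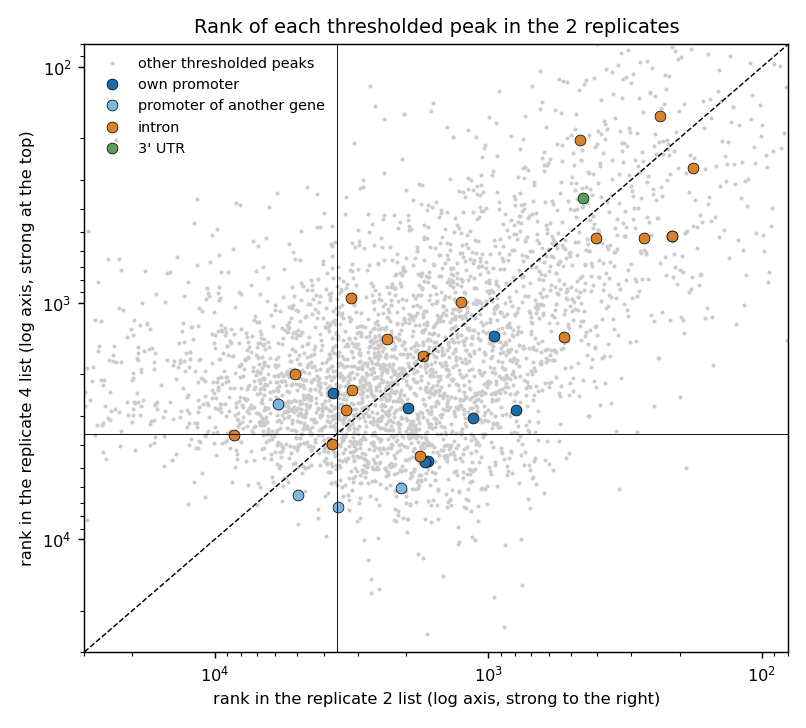
Rank of each thresholded peak in replicate 2 on the horizontal axis and in replicate 4 on the vertical axis (log axes, strong at the top right, the very strongest ranks not drawn), with the peaks at the ecdysone genes in colour and other peaks in grey. The dashed line marks equal ranks and the thin lines the rank 3587; the strong intronic peaks lie near the dashed line at the top right, and 9 of the 11 promoter peaks lie below the dashed line, that is, higher in replicate 2.

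The metal response element (MRE), the DNA sequence MTF-1 is known to bind, was searched as its core TGCACNC or TGCGCNC on both strands. None of the 30 windows of 101 bp at the ecdysone genes held a core. A count of 0 of 30 allows a share of up to about 10% by counting error alone. Several windows lie in the same gene and are not independent, so this limit is rough and no test of depletion. Of all thresholded windows 11.4% held one, and of background windows 8.64%. Within 100 bp of the summit the core was present at 7 of the 30, against 20.9% of all thresholded peaks, and 9 of the 30 whole regions held one, against 29.0%. By both of these counts the share at the ecdysone genes was no lower. For 29 of the 30 peaks a core was found within 2000 bp of the summit, the nearest lying 49 to 1508 bp away with a median of 464 bp; the *EcR* peak of rank 3524 had none within that distance. In the 9 regions that held a core, 3 of them in *Hr4* introns, the nearest lay 49 to 168 bp from the summit.

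Motifs of the cascade's own receptors were too rare in all thresholded windows for their absence from 30 windows to say anything about these genes. The ecdysone response element, the short receptor site AGGTCA and the site CAAGGTCA, to which FTZ-F1 and HR39 bind and which contains the short one, were searched on both strands. They occurred in 0 of the 30 windows and in 0%, 1.87% and 0.195% of all thresholded windows. The pattern used for the ecdysone response element also occurred in only 3 of 14859 background windows. The promoter elements TATCGATA (DRE) and GGTCACAC (M1BP site) were absent from the 30 as well. They were present in 1.56% and 1.37% of all, so their absence says as little. GAGAG, the site of GAGA factor, occurred in 7 of the 30 (23.3% against 15.8% of all), 4 of them at promoters and 2 in introns. The E-box CANNTG occurred in 17 of the 30 (56.7% against 40.8%), in 11 of the 18 intronic windows and 5 of the 11 promoter windows.

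The count of genes with a peak varied with the rule. A thresholded summit inside the gene itself was found for 6 of the 9 genes, against 10.9% of all protein-coding genes, and a summit within 1000 bp for the same number, against 22.4%. Giving each peak only to the protein-coding gene with the nearest start left 6 of 9, against 17.5%. By each of these rules the 3 genes without a peak were *br*, *usp* and *Eip74EF*. The 1793 strongest thresholded peaks reached 6 of 9 within 5 kb, against 24.5%. These shares, and those in the next paragraph, cover all genes, of which 11968 of 13945 span under 10 kb. No share for long genes alone was counted by these rules. The differences are therefore no measure of enrichment at the ecdysone genes.

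The replicate lists gave different counts. With the 3587 strongest regions of replicate 2 in place of the thresholded list 8 of 9 genes had a region, against 37% of genes, and with those of replicate 4 it was 6 of 9 against 39.4%. In replicate 2 those regions numbered 42 at the 9 genes, 16 of them at *Eip75B*, 7 at *ftz-f1*, 7 at *Hr4* and 6 at *EcR*. In replicate 4 they numbered 30, with 9 at *Eip75B*, 8 at *Hr4*, 6 at *EcR* and none at *br*, *Hr39* or *usp*.

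Other genes of the ecdysone pathway were counted by the same rule. Of 70 such genes in 6 lists, 35 had a thresholded summit within 5 kb (50%, beside 38.7% of protein-coding genes). The lists were written with earlier results of these data known, so the counts are no independent support. The counts of single lists below are small. Those within 5 kb are to be read beside that 38.7%, or beside the share for genes of like span. That share was 35.5% under 10 kb, 57.4% from 10 to 50 kb and 64.8% at 50 kb or more. Counts within 1000 bp are to be read beside 22.4% of all protein-coding genes, and counts by nearest start beside 17.5%. Among 12 synthesis genes, which include the Halloween cytochromes, *sad* had a peak of rank 2242 and *ecd* one of rank 2492, nearer to the starts of *CG31368* and *CG13807*. Of 3 genes for uptake and inactivation, *Oatp74D*, the ecdysone importer, had a peak of rank 150 in an intron, nearer to the start of *CG6333*. Of 6 genes that control the prothoracic gland, *mld* had one of rank 1377.

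Among 14 genes for coregulators, chaperones and chromatin remodellers that work with the receptor, 9 had a peak (64.3%). They were the chaperone gene *Hsp83* (rank 22), *trr* (rank 271), the remodeller gene *brm* (rank 346), *Iswi* (rank 738), the coactivator gene *tai* (rank 1332), the corepressor gene *Smr* (rank 1900), *Hsc70-4* (rank 2287), *Chd64* (rank 3116) and *mor* (rank 3297). The best peaks of *trr*, *Iswi*, *tai*, *Smr* and *mor* lay nearer to a start of another gene. Within 1000 bp 7 of the 14 had a peak, and by nearest start 6. Of 15 later nuclear receptors and secondary factors, 7 had a peak within 5 kb (46.7%), and 5 within 1000 bp or by nearest start. *Hr3*, the nuclear receptor gene that precedes *ftz-f1* in the cascade, had 6 peaks, the best of rank 177, with rank 410 in replicate 2 and 111 in replicate 4. The others were *Hr96* (rank 433), *Hr51* (rank 474), *Blimp-1* (rank 673), *Hnf4* (rank 928), the *let-7* complex lncRNA:let7C (rank 1033) and *kay* (rank 2259). The best peaks of *Hr96*, *Hr51*, *Blimp-1* and the *let-7* complex lay nearer to a start of another gene.

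Of 20 genes listed as ecdysone targets, 15 had a peak within 5 kb (75%), 9 within 1000 bp and 10 by nearest start. *MsrA*, formerly Eip71CD, had one of rank 119, nearer to *CG7841*. *chinmo* had one of rank 206, nearer to a non-coding gene, and *ImpL2*, an insulin-binding protein gene, one of rank 226. The remaining ranks were 1079 for *rpr*, 1150 for *Eip63F-1*, 1201 for *Eip63E*, 1234 for *Ldh*, 1509 for *Kr-h1*, 1693 for *Sgs4*, 1819 for *Cth*, 2322 for *Sgs3*, 2342 for *ImpE1*, 2573 for *hid*, 3218 for *ImpE2* and 3282 for *ImpE3*. Those of *Sgs4*, *Cth*, *ImpE2* and *ImpE3* lay nearer to a start of another gene.

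The genes whose best ranks were most like those of *Hr4* were *CG43131* (ranks 182, 228 and 143 in the pooled list, replicate 2 and replicate 4), *CG14431* and *CG3040* (both 167, 234 and 150), beside 189, 236 and 162 for *Hr4*. Likeness was the Euclidean distance of the log10 best ranks over the 3 lists, among 11123 genes with a region in each, and was 0.0586 for the first and 0.0634 for the other two.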

How the data were processed

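Peak lists on dm6 were used as deposited. Per the deposited read-me, the authors made a list of peaks and background for each replicate and for the pooled alignments, each with 1 control, and derived the thresholded list from the 3 by irreproducible discovery rate. Signal values and −log10 q-values are the authors' own as deposited; only signal was used for ranking. The sources used here name no aligner, peak caller or threshold. Genes and starts came from Ensembl release 115 (BDGP6.54, the dm6 assembly), without transposable elements, on 2L, 2R, 3L, 3R, 4 and X (23581 distinct starts). A replicate rank is that of the strongest region overlapping a peak by 1 bp or more. A summit within 500 bp of a start was called promoter; the others were placed by exon, UTR or intron. The named genes are the 9 chosen, their nearest neighbours, every pathway gene with a peak and the 3 genes most like *Hr4*. All 70 pathway symbols were matched, 7 under another symbol. No test was run, as there is 1 group of 2 samples and no other group to compare it with. Assignment steps were tested on simulated summits. The members and lists were chosen with earlier results of these data known. Scripts used Python 3.11.15 and pandas 2.3.3.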

Additional observations from a re-analysis of the deposited data

How the results depend on the processing

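The number of the 9 genes with a peak was 6 to 8 when 1 replicate was left out and 6 under each other distance, nearest start or stricter list tried, within 1.5 times of 8. Peaks at the 9 genes numbered 18 among the 1793 strongest, 27 to 28 with other distances or by nearest start, and 30 to 42 when 1 replicate was left out. The median rank of promoter peaks ran from 1965 to 3058 and that of intronic peaks from 1194.5 to 1500 with ranks from 1 replicate only; other promoter distances, or starts of the 9 genes only, moved them by less than the spread between replicates. An MRE core was present at 0 of 30 peaks, at 7 within 100 bp and at 9 in whole regions, since more bases were searched. Pathway genes with a peak numbered 35, 24 within 1000 bp and 23 by nearest start. Replicate ranks of each gene's strongest peak were the same under both other ways of matching. No paired analysis was possible because there is 1 group. Read depth is unknown, which limits how firmly neighbouring ranks can be told apart.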
